A study of Mus musculus with 2 samples.

Results

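Fcnb-high pre-neutrophils are bone marrow cells with transcripts of neutrophil granule proteins that hold more transcript of ficolin B (Fcnb) than of lactoferrin (Ltf). They were chosen by measured values in each cell: the summed UMIs (unique molecular identifiers, 1 per counted transcript) of Ltf, Camp, Ngp, S100a8, S100a9 and Lcn2 had to reach 2% of the cell's gene UMIs, and Fcnb UMIs had to exceed Ltf UMIs. The rule was met by 147 of 14068 cells that passed the filters, 110 of them control cells and 37 from the library labelled Utx-deleted. Both libraries hold mouse bone marrow cells positive for Kit and for CD45.2, taken 10 weeks after transplantation, and differ by label only in the deletion of Utx. Utx (gene Kdm6a) encodes an enzyme of the MLL3/MLL4 complexes that removes methyl groups from lysine 27 of histone H3. The Cre driver, the donors' genotype beyond this label, the number of animals and the meaning of the 2 hashtag antibodies are not given in the sources used here, and CD45.2 is the usual mark of donor cells in such transplants.

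Neutrophils mature through ordered waves of granule protein synthesis. Promyelocytes make the azurophil granule proteins (elastase, proteinase 3, myeloperoxidase and cathepsin G), dividing pre-neutrophils and myelocytes make the specific granule proteins (lactoferrin, cathelicidin, neutrophilic granule protein and lipocalin 2), and post-mitotic cells make gelatinase and surface receptors. Ficolin B is a lectin of the complement system whose transcript peaks in mouse marrow before lactoferrin takes over, so cells with more Fcnb than Ltf lie at the start of the specific granule wave. The C/EBP factors, C/EBP epsilon above all, drive the specific granule genes.

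The 250 bases before the transcript start given by RefSeq are shown for Fcnb and Ltf, whose balance defines the cells, and for Fcer1g and Mapk13, which were among the genes with the lowest ratio of the libraries within them. Sequences are from RefSeq, GRCm38.p6, read 5′ to 3′ on the strand of the gene, which is the plus strand for Ltf and Mapk13 and the minus strand for Fcnb and Fcer1g. The windows are chr2:28084879-28085128, chr9:111019042-111019291, chr1:171234350-171234599 and chr17:28769067-28769316, in the order printed. The RefSeq starts lie inside the genes as GENCODE draws them, so the last 7, 21, 16 and 20 bases of the windows fall within the GENCODE genes, and distances are counted from the RefSeq start. Capitals mark matches to the C/EBP letters TTNNGCAA or to the E2F letters TTTCCCGC, searched on both strands.
Fcnb: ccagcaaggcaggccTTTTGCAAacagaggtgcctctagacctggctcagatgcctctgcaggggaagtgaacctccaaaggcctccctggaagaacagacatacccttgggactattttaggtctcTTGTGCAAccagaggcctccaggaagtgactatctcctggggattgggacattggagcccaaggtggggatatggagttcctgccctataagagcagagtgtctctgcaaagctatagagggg
Ltf: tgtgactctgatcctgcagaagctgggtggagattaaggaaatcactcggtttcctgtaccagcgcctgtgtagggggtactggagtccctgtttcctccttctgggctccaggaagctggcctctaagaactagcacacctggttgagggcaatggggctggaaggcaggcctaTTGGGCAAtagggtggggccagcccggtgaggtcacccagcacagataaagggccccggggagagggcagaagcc
Fcer1g: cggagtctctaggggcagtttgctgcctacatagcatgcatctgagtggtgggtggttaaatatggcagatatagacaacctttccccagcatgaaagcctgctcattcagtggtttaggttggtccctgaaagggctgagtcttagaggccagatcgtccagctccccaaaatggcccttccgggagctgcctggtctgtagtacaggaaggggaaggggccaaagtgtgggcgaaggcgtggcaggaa
Mapk13: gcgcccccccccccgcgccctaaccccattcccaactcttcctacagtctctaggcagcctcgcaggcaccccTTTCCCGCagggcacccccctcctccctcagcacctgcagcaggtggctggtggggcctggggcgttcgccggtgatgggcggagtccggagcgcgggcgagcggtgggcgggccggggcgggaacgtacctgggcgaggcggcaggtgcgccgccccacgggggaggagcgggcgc
The Fcnb window held the C/EBP letters at 2 positions, starting 235 and 123 bases before the start, and the Ltf window at 1 position, 75 bases before it. Of 32851 windows of this length, 9.56% held these letters and 0.572% held them at 2 or more positions. The Fcer1g window held neither motif, and the Mapk13 window held the E2F letters 177 bases before its start, as 0.895% of windows did. A match describes letters and not binding.

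The libraries held 7827 and 7883 barcodes and 122130256 and 129736034 gene UMIs, control first. Kdm6a (chrX:18162575-18279936, GENCODE M21 on GRCm38) was at 111 CPM (UMIs per 1000000 gene UMIs) over all control cells and at 104 CPM over all cells of the other library. Counts of transcript 3′ ends do not see a deleted internal exon and so do not check the deletion, and the second library is called here by its label. Within Fcnb-high cells Kdm6a was at 66.0 CPM (95% interval 56.0 to 77.2, 156 UMIs) in control and 40.3 CPM (27.2 to 57.5, 30 UMIs) in the other library, a log2 ratio of -0.67. There was 1 library per group, so no difference could be tested. Intervals are exact and cover counting error only. The hashtags give 2 populations of cells in each library and show the spread inside it, but are not known to be animals.

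Fcnb-high cells made up 1.55% of control cells (95% interval 1.28 to 1.86, Clopper-Pearson) and 0.531% (0.374 to 0.731) of those in the library labelled Utx-deleted. The share was 2.92-fold higher in control, a difference of -1.02 percentage points (Newcombe interval -1.37 to -0.689). Both control hashtag populations, at 1.77% and 1.36%, lay above both of the other library, at 0.398% and 0.653%. The populations before and after this stage had other shares. Elane-rich cells, with at least 2% of UMIs from Elane, Mpo, Prtn3 and Ctsg and under 2% from the 6 granule genes, were 5.79% of control cells and 10.2% of the others. Ltf-dominant cells, which met the granule minimum but had at least as many Ltf as Fcnb UMIs, were 73.7% and 76.7%, and their hashtag populations overlapped. These shares describe what the Kit sort delivered, and the CD117 (Kit) tag was low on the Ltf-dominant cells, with medians of 19 and 11 UMIs. Of all cells past the granule minimum, 2.06% of 5340 and 0.688% of 5381 were Fcnb-high.

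The values around the thresholds of the rule are a description. In control, 5 Fcnb-high cells exceeded Ltf by no more than 5 Fcnb UMIs, while 128 cells outside the rule fell 0 to 5 UMIs short, 35 of which had no UMI of either gene and 8 of which had at least 5 Fcnb UMIs. The corresponding numbers in the library labelled Utx-deleted were 2, 55, 12 and 2, so most cells just outside held little Fcnb. Near the granule minimum, 3 control cells lay between 2 and 2.5% and 6 otherwise eligible cells between 1.5 and 2%, against 3 and 7.

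Fcnb-high cells were deeply counted. Median gene UMIs per cell were 21055 (range 6580 to 60123) in control and 18483 (987 to 42933) in the library labelled Utx-deleted, with medians of 4539.5 and 4106 genes and of 2.11% and 2.45% mitochondrial UMIs. The 2 libraries shared 17 cell barcodes, none of them a Fcnb-high cell. Fcnb itself had a median of 46 UMIs per control cell (range 5 to 101) and 32 (2 to 81) in the other library. Ltf had medians of 6.5 (0 to 54) and 4 (0 to 55) UMIs, and 24 and 8 cells had none. The quartiles of Fcnb were 35 and 58.75 UMIs in control and lay further apart, at 14 and 60, in the other library. Cells with a granule share under 5% had 0 to 2 Ltf UMIs in control and 0 to 1 in the other library, and 5 to 41 and 2 to 21 Fcnb UMIs.

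**Figure D1:**
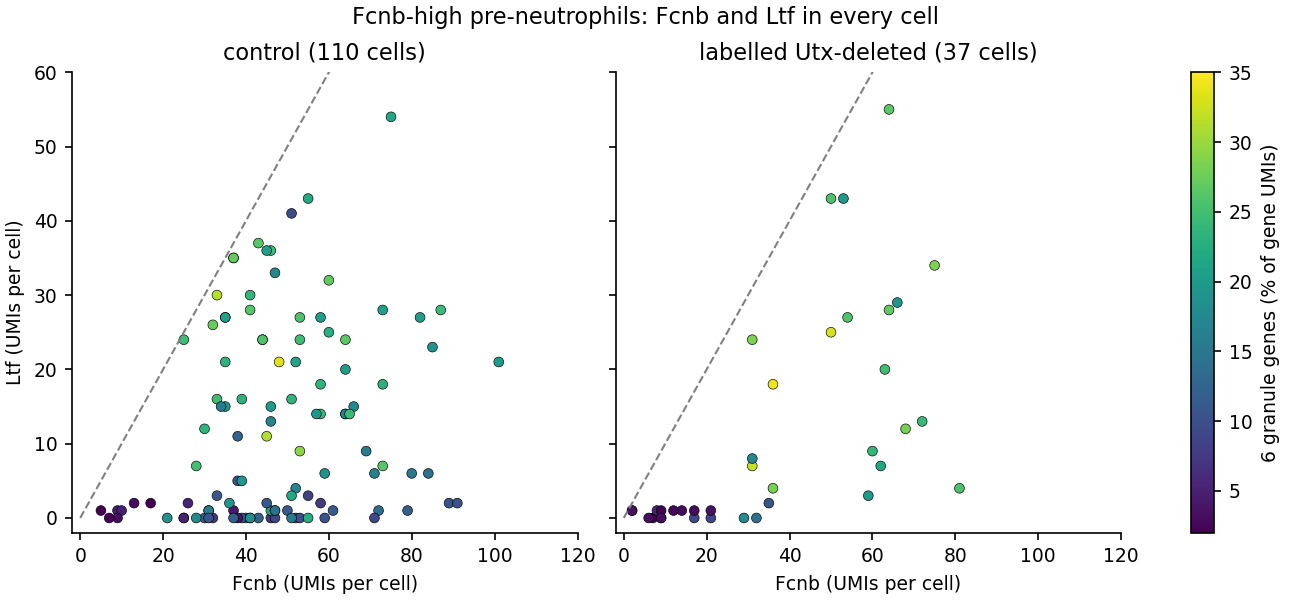
Each point is 1 Fcnb-high cell, with Fcnb UMIs on the horizontal and Ltf UMIs on the vertical axis, coloured by the share of gene UMIs from the 6 granule genes; the dashed line marks equal UMIs. Control has 110 cells and the library labelled Utx-deleted 37, with 5 to 101 and 2 to 81 Fcnb UMIs.

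The 4 genes given as markers of this stage were compared with the cells before and after it. Chit1, a chitinase, Ccne2, the cyclin that drives entry into S phase, and Rrm2, the inducible subunit of ribonucleotide reductase, were not part of the rule, although they come from the same cells. In control, Fcnb was at 2220 CPM in Fcnb-high cells, 551 CPM in Ltf-dominant cells and 63.7 CPM in Elane-rich cells, an order that the rule fixes in part. Ccne2 was at 66.0, 29.6 and 27.4 CPM, Rrm2 at 363, 163 and 163 CPM, and Chit1 at 19.0, 5.1 and 0.3 CPM. With the label Utx-deleted, Fcnb was at 1821, 315 and 15.1 CPM, Ccne2 at 60.4, 25.6 and 25.8 CPM, Rrm2 at 176, 135 and 103 CPM, and Chit1 at 9.4, 1.4 and 0.0 CPM. Of these 3 populations, Ccne2, Rrm2 and Chit1 were highest in Fcnb-high cells in both libraries, with Chit1 resting on 45 and 7 UMIs. The markers were given with these cells, so this order describes them and does not check their name. In the library labelled Utx-deleted, Fcnb-high cells with granule shares of 2 to 5% and 5 to 10% had no Chit1 UMI. Rrm2 was at 166 and 107 CPM in them, and Ccne2 at 35.1 and 17.8 CPM.

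The cells around them framed this stage as a passage between granule programmes. Elane, neutrophil elastase, was at 10603 CPM in control Fcnb-high cells, near the 11530 CPM of Elane-rich cells and 43.1-fold above Ltf-dominant cells. Camp, cathelicidin, was at 38375 CPM, 233-fold above Elane-rich cells and at 0.749 of the Ltf-dominant level. In the library labelled Utx-deleted, Elane was 23.8-fold above Ltf-dominant cells and Camp 205-fold above Elane-rich cells. These are values over all Fcnb-high cells, and those with the lowest granule shares had far less Camp, as given with the granule-share classes. Elane was at 22182 CPM in control cells with granule shares of 2 to 5% and at 4652 CPM in those from 20%. In the other library it was at 18808 and 4709 CPM. The level of Elane over all Fcnb-high cells thus averages cells above and below the Elane-rich level. The highest ratios over Ltf-dominant cells in control belonged to Elane, Dmkn, Mgl2, Prtn3, Rapsn, Cst7, Nkg7, Srgn, Gstm1 and Mpo, and in the other library to Mgl2, Dmkn, Elane, Prtn3, Hebp1, Nkg7, F10, Srgn, Gng11 and Tma16. Over Elane-rich cells the leading genes were Camp, Olfml2b, Ngp, Itgb2l, S100a9, Chil3, C5ar1, Cd177, Fgr and Slco4c1 in control and Camp, Fcnb, S100a9, Ngp, Orm1, Chil3, S100a8, Olfm4, Cd177 and Itgam in the other library. The rule used Camp, Ngp, Fcnb, S100a8 and S100a9, so their places are part of the choice of cells.

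In summed counts, replication genes were higher in Fcnb-high than in Ltf-dominant cells and mitotic genes were at like levels. Of 30 genes of the G1/S transition, 26 were at least 2-fold higher in Fcnb-high cells in control and 22 in the library labelled Utx-deleted, where 16.3% and 22.7% of all genes with at least 100 UMIs were. Of 25 G2/M genes, 0 were in either library. Mcm6, part of the replicative helicase, was at 191 CPM in control Fcnb-high cells and 47.4 CPM in Ltf-dominant cells, and at 173 and 38.6 CPM in the other library. Top2a, the topoisomerase that separates sister chromosomes, was at 570 and 544 CPM in control and at 391 and 432 CPM in the other library. The sums pool Ltf-dominant cells that differ widely, and medians over cells show another picture. The G2/M genes had a median of 0.309% of gene UMIs in control Fcnb-high cells and 0.0268% in Ltf-dominant cells, whose upper quartile was 0.546%, and the G1/S genes medians of 0.356% and 0.0380%. In the other library the medians were 0.209% and 0.0144% for G2/M and 0.238% and 0.0279% for G1/S. Of 20 genes of late neutrophils, 18 were at least 2-fold lower in Fcnb-high cells in control and 17 of 19 in the other library, against 11.9% and 12.7% of all genes. Mmp8, neutrophil collagenase, was at 3.4 CPM against 785 CPM in control, and Mmp9, gelatinase B, at 9.3 CPM against 741 CPM. Since the cells were chosen by expression, these counts describe them and were not tested.

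Within the Fcnb-high cells, the share of the 6 granule genes ran from 2.12 to 33.4% of gene UMIs in control, with a median of 18.4%, and from 2.04 to 34.2% in the other library, where the median was 19.5%. The 2 libraries filled this range unequally. In control, 11, 11, 42 and 46 cells had shares of 2 to 5%, 5 to 10%, 10 to 20% and from 20%. In the library labelled Utx-deleted the numbers were 10, 3, 8 and 16. The lowest class thus held 10% of control Fcnb-high cells (interval 5.10 to 17.2) and 27.0% of the others (13.8 to 44.1), whose intervals overlap. The members of the lowest class held little of the specific granule genes. In the library labelled Utx-deleted, its 10 cells had Camp at 216 CPM, Ngp at 75.3 CPM and Ltf at 30.1 CPM, against 206, 105 and 39.7 CPM in Elane-rich cells. S100a8 and S100a9, the calprotectin subunits, were at 14977 and 11608 CPM in these 10 cells, against 856 and 627 CPM in Elane-rich cells. In control, Camp was at 1024 CPM in the lowest class and 165 CPM in Elane-rich cells, while Ngp was at 85.9 and 78.0 CPM. Camp was at 11483, 32279 and 63098 CPM in the next 3 classes of control and at 1462, 42516 and 73816 CPM in those of the other library, so its level over all Fcnb-high cells comes mainly from cells with shares from 10%.

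**Figure D2:**
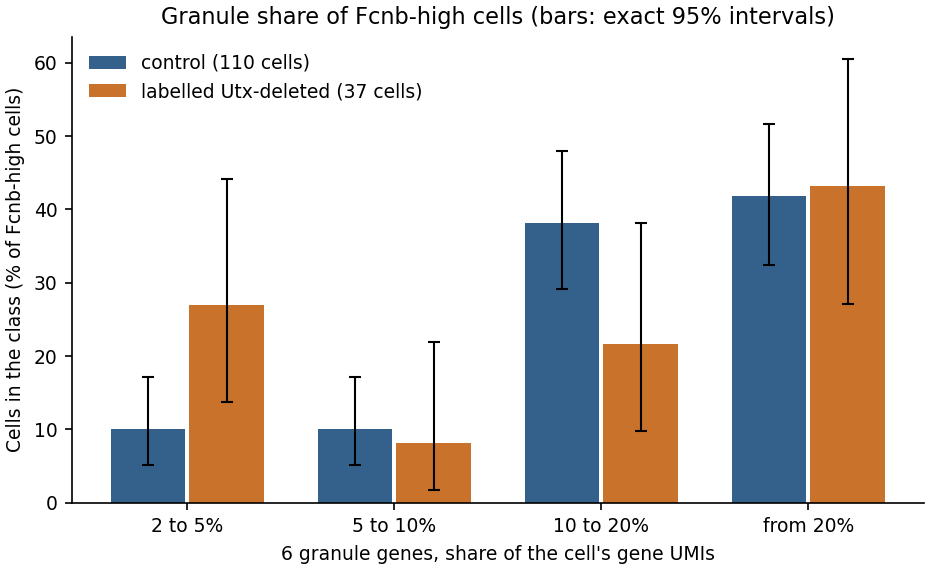
Bars give the percentage of Fcnb-high cells in each class of granule share for control (110 cells) and the library labelled Utx-deleted (37 cells), with exact 95% binomial intervals. The lowest class holds 10% and 27.0% of the cells, and the classes from 20% hold 41.8% and 43.2%.

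Along the same range the azurophil genes gave way. The median share of Elane, Mpo, Prtn3 and Ctsg was 4.29%, 3.49%, 1.99% and 0.692% over the 4 classes in control and 4.75%, 4.54%, 1.20% and 0.879% in the other library. Ctsg was at 6340 CPM in the lowest control class and 175 CPM in the highest, and at 7180 and 190 CPM in the other library. Fcnb went the other way, from 848 to 2529 CPM in control and from 532 to 2660 CPM in the other library, with 551 and 315 CPM in the Ltf-dominant cells. The rule, which asks for more Fcnb than Ltf, fixes this order of Fcnb in part. Chil3 (Ym1), a chitinase-like protein without enzyme activity, was at 750, 2940, 4395 and 7748 CPM over the control classes and at 919, 553, 2417 and 4030 CPM in the other library. In the lowest class of that library, 170 of the 183 Chil3 UMIs came from 1 cell, so 919 CPM does not describe the other cells of the class. The classes of the library labelled Utx-deleted hold 3 to 16 cells, so each level there rests on few cells.

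**Figure D3:**
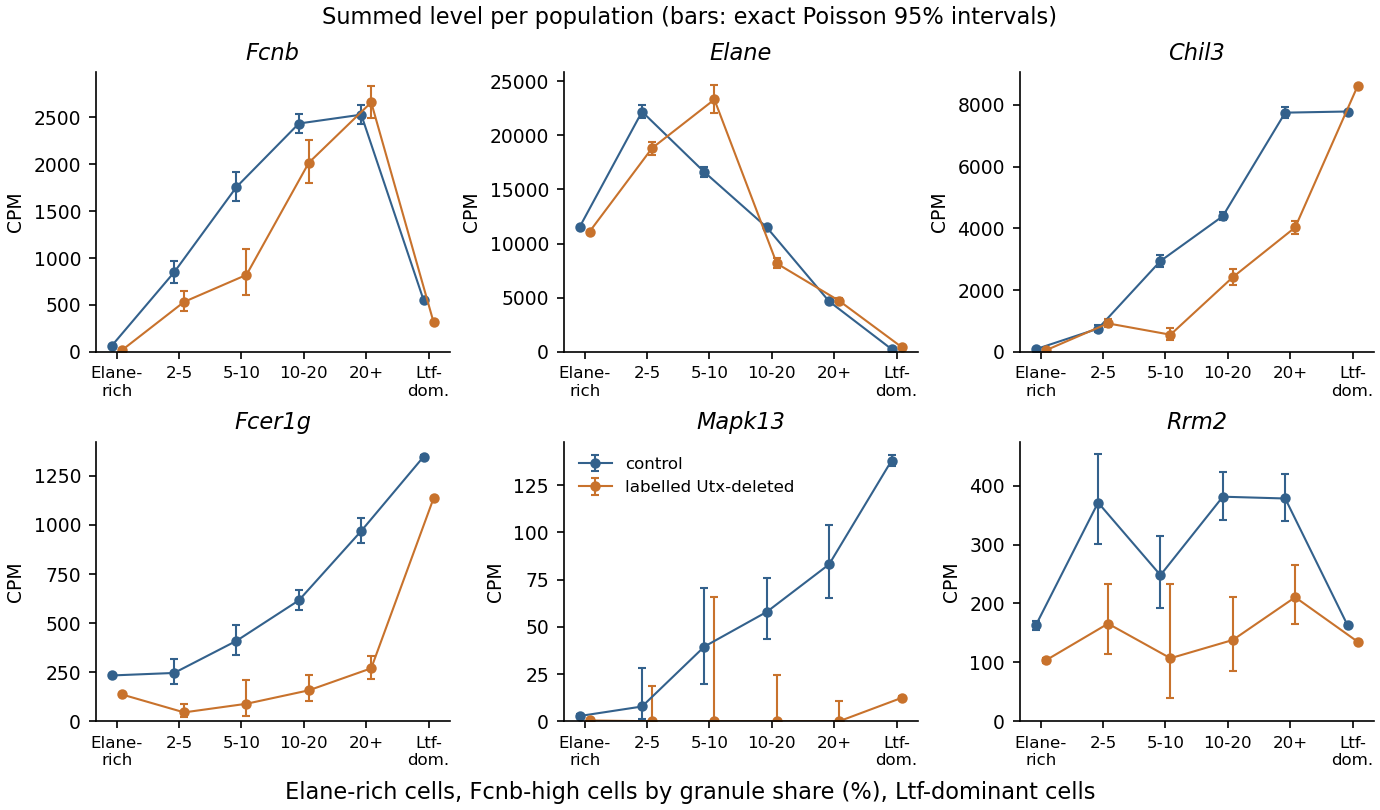
Each panel plots the summed level of 1 gene (CPM, linear axis from 0) in Elane-rich cells, in the 4 granule-share classes of Fcnb-high cells and in Ltf-dominant cells, for both libraries, with exact Poisson 95% intervals. Fcnb peaks within the Fcnb-high cells, which the rule fixes in part. Elane is lower from 10% granule share on, and Fcer1g lies lower in the library labelled Utx-deleted in all 4 classes. Mapk13 has no UMI there in any class, with intervals that overlap those of control under 10% granule share.

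Between the libraries, 4281 genes had at least 100 UMIs over the Fcnb-high cells (2364944 UMIs in control, 744721 in the other library). Of these, 18 genes (0.42%) had a ratio of the library labelled Utx-deleted over control of 2-fold or more, and 70 (1.64%) were lower by that much. All 18 and 69 of the 70 lay on the same side of 0 in all 4 pairings of a control with a Utx-deleted hashtag population. The pairings split the same cells whose sums chose these genes, so this count is no separate support for them. The median log2 ratio of all genes was -0.11. TMM scaling, which assumes that most genes do not differ, put it at 0.014 and gave 28 genes higher and 41 lower, so each ratio is read against that median. Inside a library the 2 hashtag populations of Fcnb-high cells differed less: 2 of 3545 genes were 2-fold higher and 0 lower in control, and 1 and 2 of 973 in the library labelled Utx-deleted. Scrublet, a doublet caller, placed 3 of the 110 control cells and 6 of the 37 others among the top 6% of scores of their library, and without these there were 27 genes higher and 83 lower. Because the ratio adds 1 UMI to each sum, it depends on that addition for genes with few UMIs.

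Fcer1g (chr1:171229572-171234365), the common gamma chain that Fc receptors need to reach the surface and to signal, was the most abundant of the 10 genes with the lowest ratios. It was at 645 and 738 CPM in the control hashtag populations and at 193 and 164 CPM in those of the library labelled Utx-deleted, so the populations did not overlap. Over all Fcnb-high cells it was at 688 CPM (655 to 723) and 173 CPM (145 to 206), a log2 ratio of -1.98 (counting interval -2.26 to -1.73). All 110 control cells held a UMI of it, with a median of 13.5 per cell, against 30 of 37 cells and a median of 3. After each cell was thinned to 10000 UMIs, 97.2% of 109 and 63.9% of 36 cells still did. Megakaryocyte and erythroid cells of the same libraries, taken as a background for free RNA, held it at 41.3 and 15.3 CPM. Their share of cells with a UMI was 40.2% and 30.3% at median depths of 24942 and 33049.5 UMIs, and 23.0% and 12.1% after the same thinning. In control Fcer1g was at 246, 410, 616 and 969 CPM over the granule-share classes, and in the other library at 45.2, 89.2, 158 and 270 CPM. The ratio was -0.77 in Elane-rich cells (233 and 137 CPM) and -0.25 in Ltf-dominant cells (1348 and 1136 CPM), and the 3 ratios were not tested against each other.

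Mapk13 (chr17:28769297-28780233), which encodes the p38 delta kinase, had 142 UMIs in 74 of 110 control cells and 0 in the 37 of the library labelled Utx-deleted. Control hashtag populations were at 58.4 and 61.9 CPM. Against a floor of 3 counts over the library, Mapk13 was at least 14.9-fold lower, and by the same 3 counts 0 of 37 cells allows a share of up to 8.11% with a UMI. After thinning to 10000 UMIs per cell, 42.2% of control cells kept a UMI. It was also low elsewhere in that library, at 12.4 CPM against 138 CPM in Ltf-dominant cells. Megakaryocyte and erythroid cells held it at 1.1 CPM in control and 0.0 CPM in the other library.

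The other 8 of the 10 lowest ratios included Ifitm6 of the late neutrophil list and Padi4 of the specific granule list. Ifitm3 and Ifitm6, interferon-induced transmembrane proteins, had 187 and 211 UMIs in control against 1 and 4, or 79.1 and 89.2 CPM against 1.3 and 5.4 CPM. Padi4, the enzyme that citrullinates histones in neutrophil extracellular traps, was at 60.9 CPM (144 UMIs) against 6.7 CPM (5 UMIs). Chil1, a chitinase-like lectin, was at 56.2 CPM against 10.7 CPM, with 25.2 and 4.0 CPM in the hashtag populations of the library labelled Utx-deleted. Pde8a, a cyclic AMP phosphodiesterase, was at 64.7 CPM against 6.7 CPM. Vill, a villin-like actin-binding protein, was at 44.8 CPM against 1.3 CPM (1 UMI), Rap1gap2, a GTPase-activating protein of Rap1, at 47.4 against 12.1 CPM, and Dock1, an exchange factor for Rac, at 134 against 38.9 CPM. The highest UMI counts of these 8 genes in the library labelled Utx-deleted were 29 for Dock1 and 9 for Rap1gap2.

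Set beside the cells before and after, these genes did not all have like ratios. In Ltf-dominant cells Mapk13, Vill, Dock1 and Pde8a had ratios of -3.48, -2.62, -2.46 and -1.41. Ifitm3, Ifitm6, Padi4, Chil1 and Rap1gap2 had ratios there of -0.48, -0.66, -0.50, -0.75 and -0.49, against -4.89, -3.74, -2.93, -2.23 and -1.83 in Fcnb-high cells. In Elane-rich cells the ratios of these 5 genes were -0.94, -0.27, -2.88, -0.35 and -0.96, so that of Padi4 was close to its ratio in Fcnb-high cells. Mapk13, Vill, Dock1 and Pde8a had ratios of -2.58, -2.24, -0.80 and -2.08 in Elane-rich cells. In control these 5 genes were lower in Fcnb-high than in Ltf-dominant cells, Ifitm6 being at 89.2 and 1675 CPM and Padi4 at 60.9 and 216 CPM. Given the same weight for each granule-share class in both libraries, Ifitm6 had a ratio of -3.33, Padi4 -3.03 and Fcer1g -1.92. Whether the smaller number of cells in the middle classes bears on these ratios otherwise was not tested.

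Olfm4 (chr14:79984081-80023139), olfactomedin 4, a specific granule protein made by only part of neutrophils, had the highest ratio. It had 22 UMIs in control, 21 of them in 1 cell, and 238 UMIs in the library labelled Utx-deleted, where 8 of 37 cells (21.6%, interval 9.83 to 38.2) had a UMI of it and 5 had at least 10 UMIs. Of the megakaryocyte and erythroid cells of that library, 7.58% (2.51 to 16.8) had a UMI of it (1.52% after thinning to 10000 UMIs, against 22.2% of Fcnb-high cells), and 3 of the 8 cells had only 1 or 2 UMIs. Of those 5 cells 4 carried hashtag 1, and the hashtag populations were at 755 and 115 CPM against 0.8 and 19.1 CPM in control. The log2 ratio of 5.04 therefore rests on few cells and ranged from 2.54 to 8.91 over the pairings. In Ltf-dominant cells Olfm4 was at 109 and 834 CPM.

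The other 9 of the 10 highest ratios lay between 1.17 and 1.61. Pdcd4, an inhibitor of translation initiation, was at 30.0 CPM in each control hashtag population and at 83.9 and 94.8 CPM in those of the other library. Over the granule-share classes it was at 85.9, 61.1, 20.7 and 14.2 CPM in control. In the other library it was at 211, 53.5, 112 and 17.8 CPM, with 42 of its 68 UMIs in the lowest class. The classes thus did not have like ratios, and that of 5 to 10% was not higher. Mt1, metallothionein, was at 98.1 against 238 CPM, Mif, a secreted cytokine, at 72.7 against 173 CPM, and Vcam1, an adhesion molecule, at 75.3 against 180 CPM. Gria3, a glutamate receptor subunit, was at 35.1 against 84.6 CPM. The remaining 4 were Fcor, Gm10076, Clpp, a mitochondrial protease, and Cox6b2, a cytochrome c oxidase subunit. Pdcd4, Mif and Gria3 were high in Elane-rich cells (343, 548 and 304 CPM in control) and low in Ltf-dominant cells (36.0, 32.3 and 17.0 CPM). With equal weights for the granule-share classes their ratios were 1.38, 1.01 and 1.19.

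**Figure D4:**
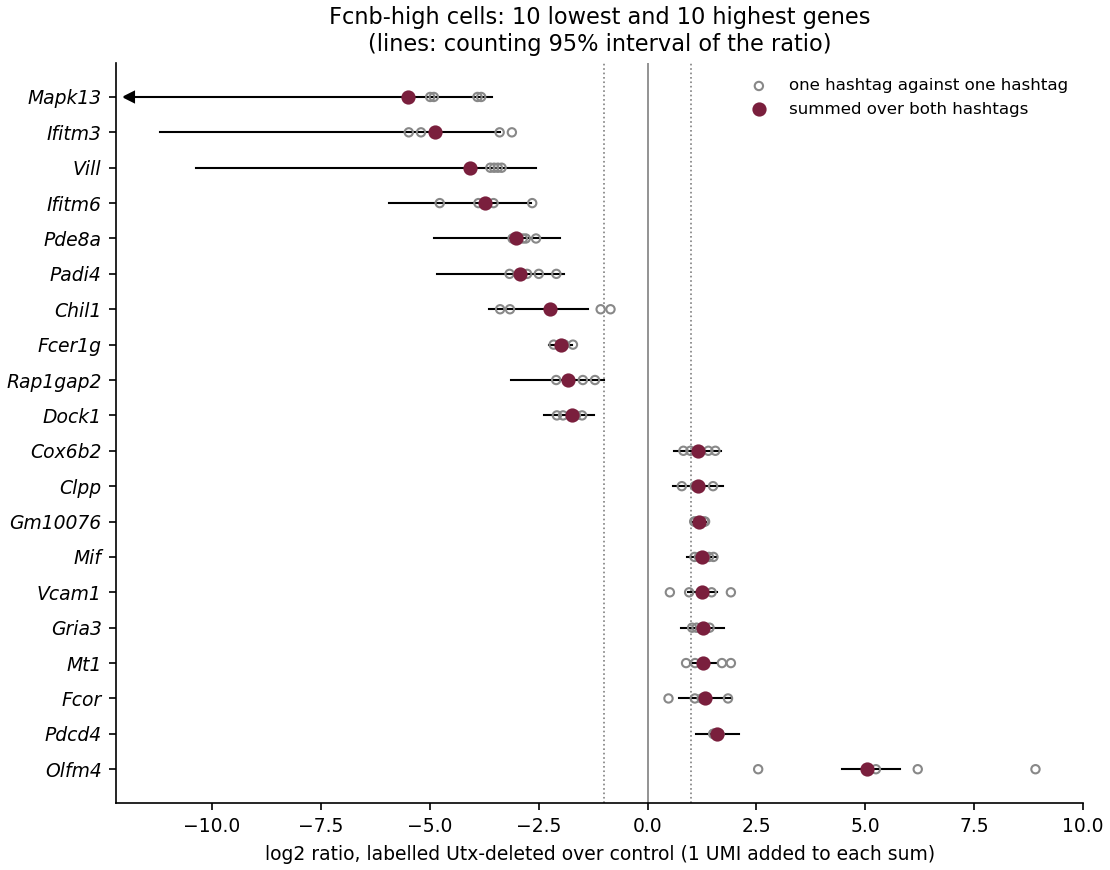
Filled points give the log2 ratio of the library labelled Utx-deleted over control for the 10 lowest and 10 highest genes in Fcnb-high cells, open points the 4 pairings of hashtag populations, and lines the 95% counting interval of the ratio (an arrow where it has no lower end). All pairings lie on the same side of 0 for each gene, which was a condition for naming it, and those of Olfm4 spread from 2.54 to 8.91.

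The granule genes that were 2-fold different between the libraries were too few to set their lists apart from all genes. For groups, genes with at least 20 UMIs were counted, of which 2.68% of 8358 were 2-fold higher with the label Utx-deleted and 4.03% 2-fold lower, with a median log2 ratio of -0.070. Of the same genes 56.1% had ratios below 0 and 43.9% above. Of 13 azurophil genes 0 were 2-fold different and 11 had ratios above 0, with a median of 0.14 that became -0.022 with a granule minimum of 5%. Elane was at 10603 and 10585 CPM, and Ctsg, cathepsin G, at 1408 and 2612 CPM (ratio 0.89, or 0.38 with equal class weights). Of 22 genes of the specific granule list, Olfm4 was 2-fold higher and Padi4 2-fold lower, 16 had ratios below 0 and the median ratio was -0.28. Camp was at 38375 and 42286 CPM, Ltf at 562 and 568 CPM and Fcnb at 2220 and 1821 CPM, which the rule shapes. Pglyrp1, a peptidoglycan-binding protein, had a ratio of -0.65, and the cytochrome subunits Cyba and Cybb had ratios of -0.42 and 0.10.

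The chitinase and ficolin family had 4 genes with at least 20 UMIs, all with ratios below 0 and a median of -0.92. Chil3 was at 5227 and 5010 CPM in the control hashtag populations and at 2340 and 2732 CPM in the other library, a ratio of -0.98 that stopped short of 2-fold. Its ratio was -0.83 in Elane-rich cells, at 81.8 and 45.9 CPM, and 0.14 in Ltf-dominant cells, at 7785 and 8605 CPM. Chil1 alone of the 4 was 2-fold lower, and the ratio of Chit1 was -0.86 on 45 and 7 UMIs. Fcnb, which chose the cells, had a ratio of -0.28.

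Of the 12 late neutrophil genes with at least 20 UMIs, 2 were 2-fold lower, namely Ifitm6 and Mmp25, a membrane-bound metalloproteinase (37 and 4 UMIs), and the median ratio was -0.44. Wfdc21, a whey-acidic-protein family member and the most abundant of them, was at 1542 and 2005 CPM, and Trem3, an activating receptor, at 614 and 579 CPM. The 8 genes of the NADPH oxidase and its regulators had a median of -0.36 with 0 past 2-fold, from Ncf4 at -0.75 to Cybb at 0.10.

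Cell cycle genes mostly had ratios below 0. Of 30 G1/S genes, 28 had ratios below 0, as 56.1% of all genes did, and the median was -0.29 (-0.17 with TMM scaling). The 2 that were 2-fold lower were Rrm2, at 363 and 176 CPM (ratio -1.04), and E2f2, an activator of S-phase genes, at 86.3 and 36.3 CPM (ratio -1.21). Rrm2 was at 404 and 317 CPM in the control hashtag populations and at 147 and 190 CPM in the others, which did not overlap. Ccne2 was at 66.0 and 60.4 CPM. Of 25 G2/M genes, 22 had ratios below 0, against the same 56.1% of all genes, with a median of -0.44 (-0.32 with TMM scaling), and Bub1, a spindle checkpoint kinase, and Cenpe, a kinetochore motor, were 2-fold lower. Mki67 was at 486 and 270 CPM and Top2a at 570 and 391 CPM. In single cells the summed G1/S genes had a median of 0.356% of gene UMIs in control and 0.238% in the other library, and the G2/M genes 0.309% and 0.209%. Over the granule-share classes the G1/S medians were 0.357%, 0.310%, 0.372% and 0.343% in control. In the other library they were 0.222%, 0.138%, 0.256% and 0.351%, so the median was not lower in the class from 20%. The summed G1/S genes were lower in that class, at 2894 CPM against 3534 CPM in control. The G1/S genes were also lower in the library labelled Utx-deleted among Ltf-dominant cells, at a summed 1177 against 1490 CPM, and among Elane-rich cells, at 2293 against 2746 CPM.

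Of 11 genes that restrain the cell cycle, Cdkn2d, an inhibitor of CDK4 and CDK6, was 2-fold lower at 147 and 68.5 CPM, and so was Ccng2, cyclin G2, with 56 and 4 UMIs. The median of the group was -0.23. None of 20 myeloid transcription factors was 2-fold different. Cebpe was at 519 and 463 CPM, Gfi1, a repressor that favours neutrophils over monocytes, at 77.0 and 129 CPM (ratio 0.75), Myb at 159 and 238 CPM (0.58), and Runx1 at 463 and 328 CPM (-0.50). Their median ratio of -0.10 became 0.025 with TMM scaling, so the group has no direction. Among 16 receptors, Itgal, the alpha chain of LFA-1, was 2-fold lower with 99 and 10 UMIs. Kit was at 63.8 and 95.3 CPM (ratio 0.59) and Fcgr3, the CD16 transcript, at 90.1 and 77.9 CPM (-0.19). The median of -0.047 turned to 0.078 with TMM scaling.

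The 16 chaperones and translocation proteins of the endoplasmic reticulum had a median of 0.091 and 0 past 2-fold, which became -0.078 with equal class weights. The 10 genes of the MLL3/MLL4 and UTX complexes had a median of -0.30, with Kmt2c and Kmt2d, the MLL3 and MLL4 methyltransferases, at -0.16 and -0.28. The 10 genes of Polycomb repressive complex 2 had a median of -0.15, with Ezh2 at -0.44. None of either group was 2-fold different. Of 7 interferon-stimulated genes Ifitm3 was 2-fold lower, and the median of -0.099 became 0.027 with TMM scaling.

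The antibody tags were not used to choose the cells, and only some of them were at levels between those of the cells before and after. In control the CD117 tag had a median of 57 UMIs per cell (quartiles 40.2 and 92), between 186 in Elane-rich and 19 in Ltf-dominant cells. In the library labelled Utx-deleted its medians were 81, 194 and 11 UMIs. The Gr1 tag, which reads Ly6G and Ly6C, had medians of 105 and 119 UMIs, far below the 968 and 1382 UMIs of Ltf-dominant cells and above the 32 and 32.5 UMIs of Elane-rich cells. CD11b, the alpha chain of the Mac-1 integrin, had medians of 336 and 235 UMIs, against 22 and 7 in Elane-rich and 274 and 238 in Ltf-dominant cells, so in control it was highest on Fcnb-high cells. It climbed with the granule share, from 140 to 380 UMIs over the control classes and from 41 to 662 UMIs in the other library. CD117 went down over the same classes, from 131 to 44 UMIs and from 167 to 56 UMIs.

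The CD16/32 tag, which reads the low-affinity Fc gamma receptors, differed most between the libraries among the 5 abundant tags by median UMIs. Its median was 756.5 UMIs (quartiles 545 and 915) on control Fcnb-high cells and 269 UMIs (196 and 388) on those of the library labelled Utx-deleted, 2.81-fold. The hashtag medians were 731.5 and 772.5 UMIs against 222 and 306 UMIs. In the granule-share classes it was at 732, 625, 748.5 and 784.5 UMIs in control and at 239, 222, 286.5 and 330 UMIs in the other library. In UMIs the tag had lower medians in the second library in other cells too, 2.03-fold in Elane-rich cells (597 and 294 UMIs) and 1.61-fold in Ltf-dominant cells (493 and 306 UMIs), where the medians of CD48 and CD117 were also 2.54-fold and 1.73-fold lower. As a centred log-ratio per cell the difference was -0.91 in Fcnb-high, -0.40 in Elane-rich and -0.065 in Ltf-dominant cells and 0.17 over all cells, so outside Fcnb-high and Elane-rich cells it depends on the scale. As a share of the 13 antibody tags its log2 ratio was -0.63 in Fcnb-high cells. The tag stood beside the transcripts of the chains it reads or needs as follows: Fcgr3 at 90.1 and 77.9 CPM, Fcgr2b, the CD32 transcript, at 61.3 and 69.8 CPM, and Fcer1g, whose product carries CD16 to the surface, at 688 and 173 CPM. Fcgr2b was added after its values were seen. A relation of the tag to these transcripts was not tested.

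On the same scale the log2 ratio was 1.02 for CD117, -0.022 for CD48, 0.40 for Gr1 and 0.36 for CD11b. The ratio of CD11b was -0.33 as a centred log-ratio per cell and -0.25 in UMIs per cell, so it has no settled direction. Gr1 had a ratio of -0.21 in UMIs per cell and likewise has none. CD117 was higher in the library labelled Utx-deleted on all 3 scales, at 0.79 as a centred log-ratio and 0.41 in UMIs per cell.

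**Figure D5:**
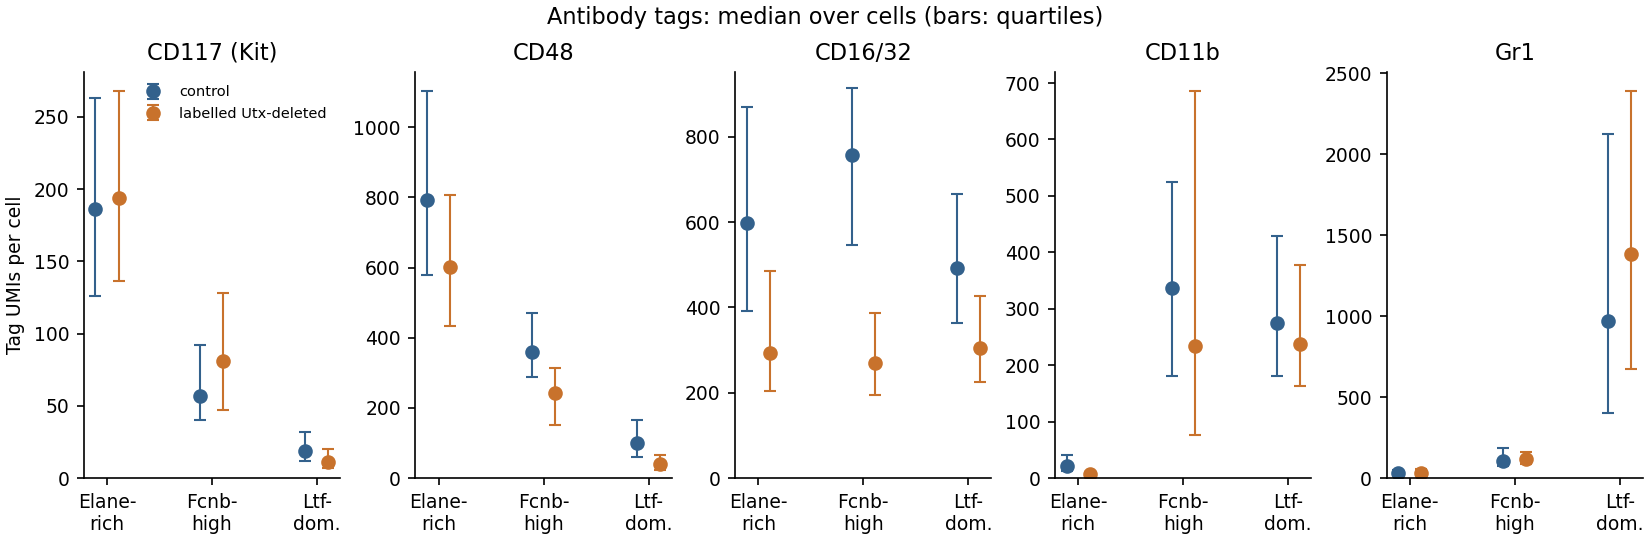
Points give the median UMIs per cell of 5 antibody tags in Elane-rich, Fcnb-high and Ltf-dominant cells of both libraries, with bars for the quartiles on linear axes from 0. CD117 and CD48 are highest in Elane-rich and Gr1 in Ltf-dominant cells, and CD16/32 on Fcnb-high cells is at 756.5 UMIs in control and 269 UMIs in the other library.

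Markers of other cell types were low but not all at 0. Of 9 megakaryocyte markers 5 had no UMI in control Fcnb-high cells and 8 none in the other library, and their summed level was 4.2 and 2.7 CPM. Of 9 erythroid markers 6 and 7 were at 0. Of the 10 B-lineage markers 5 and 7 were at 0, with a summed 90.9 and 84.6 CPM that came mainly from Ighm. The 9 dendritic cell markers summed to 450 and 379 CPM, with 3 and 5 at 0, of which Cst3, cystatin C, gave 406 and 321 CPM. The 9 T and NK cell markers summed to 465 and 482 CPM, with 7 and 8 at 0, and Nkg7, which the azurophil list also holds, gave 464 and 482 CPM. The 10 monocyte progenitor markers summed to 80.8 and 111 CPM, and F13a1, the A subunit of coagulation factor XIII, was at 34 and 60 UMIs, 18 of the latter in 1 cell. Of the 3 with at least 20 UMIs, F13a1 was 2-fold higher per gene UMI in the library labelled Utx-deleted and 1 was 2-fold lower. Most of those 60 UMIs lay in cells with granule shares under 5%. Of the 95 UMIs of the stem cell marker Angpt1 in control, 93 came from the deepest cell, with 60123 UMIs and 51 Fcnb UMIs. Hlf, another stem cell marker, had 59 UMIs over 34 control cells, 17 of them in that cell, and 5 UMIs in the other library. Of 5 stem and progenitor genes with at least 20 UMIs, Angpt1, Hlf and Adgrg1 were 2-fold lower in the other library, the ratio of Angpt1 resting on that 1 cell. The part of these cells in the other results was not tested beyond leaving out cells over 45000 or under 5000 UMIs, which gave 15 genes higher and 71 lower.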

How the data were processed

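Single-cell libraries with antibody tags were made with 10x Genomics 3′ version 3.1 chemistry, per the labels' protocols, from 1 control sample and 1 sample labelled Utx-deleted. The deposited matrices hold raw counts of UMIs for 32285 genes and 15 tags, 2 of them hashtags, as whole numbers per the file headers. Cell Ranger 7.1.0 and the build mm10 are named in the submitters' processing notes, and the authors' rule for calling cells is not given in the sources used here.

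A minimum of 500 genes and a limit of 10% mitochondrial UMIs removed 349 and 214 barcodes. Barcodes with at least 100 UMIs of both hashtags within 5-fold (380 and 699) were dropped as doublets. Scrublet scores were also computed, and leaving out the top 6% per library was an alternative. The members, lists and comparisons were chosen with earlier results of these data known.

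Deposited counts were summed over the Fcnb-high cells of each library and scaled to 1000000 gene UMIs (CPM). Each sum had 1 UMI added for the log2 ratio, for genes from 100 UMIs (20 for lists). Named genes are Kdm6a, the genes of the rule, the 10 highest and 10 lowest ratios past 2-fold with 1 sign in all 4 hashtag pairings, list members, and the 10 leading genes over each neighbouring population. With 1 library per group no test was made. Intervals are 95% exact Poisson, Clopper-Pearson or conditional binomial, and the floor for a count of 0 was 3. The rule for ratios was tested on simulated data with known answers. Python 3.11.15, numpy 2.4.6, scipy 1.17.1, pandas 2.3.3, scanpy 1.11.5 and, for TMM factors only, edgeR 4.0.16 were used. Gene coordinates are from GENCODE M21 on GRCm38, which has 99.8% of the deposited gene identifiers and may not be the authors' annotation. Feature and barcode lists were used only to name rows and columns.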

Additional observations from a re-analysis of the deposited data

How the results depend on the processing

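The lower share of Fcnb-high cells in the library labelled Utx-deleted kept its direction under every alternative run, from -0.708 points with hashtag 2 alone to -1.65 points with Fcnb above 0.5 times Ltf. It was -1.37 points with hashtag 1 alone and -1.37 points among cells past the granule minimum. The counts of genes depended on the settings. Against 18 genes 2-fold higher, there were 32 and 7 with a granule minimum of 1% and 5%, 39 with Fcnb above 0.5 times Ltf, 3 after thinning each cell to 2000 UMIs, when 325 genes and not 4281 were tested, 28 with TMM scaling, 35 with cells weighted equally, 224 of 8358 and 2 of 851 with minimums of 20 and 500 UMIs, and 141 at 1.5-fold. Against 70 genes lower, there were 113 with a granule minimum of 1%, 5 of those 325 after thinning, 42 of 2523 tested with hashtag 2 alone, 41 with TMM scaling, 337 and 8 with minimums of 20 and 500 UMIs, and 391 at 1.5-fold. Of 420 recomputed ratios of named genes, 327 stayed within their counting interval and 93 moved past it. The sign changed in 17, all of Camp, Ltf, Ngp or S100a9, genes of the rule with reported ratios of 0.14, 0.02, 0.10 and -0.09. Of 225 recomputed list medians, 194 moved by 0.2 or less and 31 by more, and 18 had the other sign, in 8 of 15 lists, most of them medians near 0. The stem and progenitor list went from -1.27 to 1.41 after thinning and to 0.317 with hashtag 1 alone, on few UMIs. Tag ratios as centred log-ratio and in UMIs per cell were 0.788 and 0.415 for CD117, -0.326 and -0.252 for CD11b, -0.906 and -1.24 for CD16/32, and -0.252 and -0.632 for CD48. The Gr1 ratio was -0.211 in UMIs per cell and 0.0637 with barcodes of both hashtags kept. Apart from those set by fewer cells or UMIs, the cause of these moves was not tested. Restricting cells to 5000 to 45000 UMIs was chosen after seeing the data. With 37 cells in 1 library, low genes there have wide counting intervals. No paired analysis was possible because each group has 1 library.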

Other observations

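Cytosolic ribosomal protein genes, picked by symbol after the data were seen, mostly had ratios above 0 in Fcnb-high cells. Of 84 such genes 81 had at least 20 UMIs, 75 of these had ratios above 0, as 43.9% of all genes with that many did, and their median log2 ratio was 0.33, against -0.070 for all genes with at least 20 UMIs. None was 2-fold different. Their summed level was 158082 CPM in the library labelled Utx-deleted against 125373 CPM in control. The median ratio was 0.27 with equal weights for the granule-share classes.

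Orm1, the acute-phase protein orosomucoid 1, was at 63.4 CPM in control Fcnb-high cells against 129 CPM in those of the other library, with 58.4 and 69.2 CPM against 122 and 132 CPM in the hashtag populations. In Ltf-dominant cells it was at 165 and 312 CPM, and in Elane-rich cells at 1.4 and 1.5 CPM.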
